A study of Mus musculus with 8 samples.

Results

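miR-138, miR-137 and miR-129 are brain-enriched miRNA families known for their action at synapses, and they were followed here in the RNA-induced silencing complex (RISC) of brains from an Alzheimer's disease mouse model. The data are R-sRNAs, the small RNAs that come down with Argonaute (Ago) proteins in a pull-down with an Ago-binding peptide and are then sequenced. The members were the 7 mature mouse miRNA names mmu-miR-138-5p, mmu-miR-138-1-3p, mmu-miR-138-2-3p, mmu-miR-137-3p, mmu-miR-129-5p, mmu-miR-129-1-3p and mmu-miR-129-2-3p (below without the prefix mmu-), taken by exact name, and the CPM (reads per 1000000 reads of a library) of all sequences under a name were added. They were 7 of 895 mature miRNA names and 750 of 47204 distinct read sequences.

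Each of the 8 libraries came from a female mouse that carried the 5XFAD transgene, which is driven by the neuronal Thy1 promoter, on a mixed C57BL/6J and SJL background. The groups were 4 5XFADtg Rubicon+/- mice (Het) and 4 5XFADtg Rubicon-/- mice (k.o.), so both carry the transgene and both lack at least 1 functional Rubicon allele; mice without the transgene or with intact Rubicon were not analysed here. Rubicon restrains autophagy. Cortex and hippocampus were combined, and the labels give no age. The study's methods name a pair of ages for these mice, and its results text gives the younger of them for this comparison. That text also speaks of fewer Het mice than the 4 labelled libraries, and all 4 were used here. The comparison asks how the content of the RISC differs once Rubicon is lost completely on the 5XFAD background. Rubicon mRNA is not measured by these libraries, so the genotype labels could not be checked against it. The tissue was lysed whole, so a synaptic location of the miRNAs was not measured either, and fewer cells of a type cannot be told apart from less of a miRNA per cell.

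A miRNA hairpin is cut into a duplex whose arms are called 5p and 3p, and an Ago protein keeps 1 of them as its guide. The guide recognises mRNAs mainly by its seed, positions 2 to 7 from its 5′ end, so a start that moves by 1 nucleotide (nt) gives another seed and other targets. miR-138 is found in dendrites, where it represses the depalmitoylating enzyme APT1 and limits spine size. miR-137 lies at a schizophrenia risk locus and is known to affect synaptic vesicle release and neuronal maturation. miR-129-5p takes part in the downscaling of excitatory synapses when network activity is high.

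The sequences show which members can be told apart and which share a seed. Mature sequences of 6 members came from RefSeq (GRCm38.p6) and matched by name, and no mature entry was matched for miR-129-1-3p, for which the most abundant deposited read is shown. All are written 5′ to 3′ with positions 2 to 8 in capitals.
miR-138-5p: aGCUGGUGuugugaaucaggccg
miR-138-1-3p, as annotated: cGGCUACUucacaacaccaggg
miR-138-1-3p, most abundant read: gCUACUUCacaacaccagggc
miR-138-2-3p: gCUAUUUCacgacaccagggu
miR-137-3p, as annotated: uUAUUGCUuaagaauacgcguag
miR-137-3p, most abundant read: uUAUUGCUuaagaauacgcgu
miR-129-5p: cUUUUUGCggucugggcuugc
miR-129-1-3p, most abundant read: aAGCCCUUaccccaaaaaguau
miR-129-2-3p: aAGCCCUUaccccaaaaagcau

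miR-129-1-3p and miR-129-2-3p share the seed AGCCCU and differ by the substitution U20C (miR-129-1-3p first, counted from the 5′ end). The most abundant reads of miR-138-1-3p and miR-138-2-3p differ at 3 positions, C5U, A11G and C21U, and the first of these lies inside the seed, so these sister arms carry different seeds. miR-138-5p and miR-129-5p are each made from 2 hairpins with the same mature sequence.

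The hairpins lie at 5 places in GRCm38.p6. Mir138-1 is at chr9:122682876-122682974 on the plus strand, in an exon of Gm47135, a transcribed pseudogene. Mir138-2 is at chr8:94324311-94324381 on the plus strand, in an exon of the lincRNA C78859. Mir137 is at chr3:118433857-118433929 on the plus strand, in an exon of the transcript Gm26871. Mir129-1 is at chr6:29022619-29022691 on the plus strand, in an exon of the lincRNA Gm3294. Mir129-2 is at chr2:94241364-94241453 on the minus strand, in an intron of the lincRNA Mir670hg, with Mir129b annotated on the opposite strand at chr2:94241378-94241442. No sequence was named miR-129b-5p or miR-129b-3p in any library, where 3 reads correspond to 0.151 to 5.79 CPM depending on depth.

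Depth differed widely. The deposited table, from which the authors had removed rare reads, held 509839 to 19878054 reads per library, a 39.0-fold range. The 2 libraries over 5000000 reads were both k.o. libraries (replicates 1 and 2). Lists of miRNAs known from other cell types were measured alongside, and epithelial miRNAs of the choroid plexus and epithelium list moved with genotype. Of its 8 tested miRNAs, 7 were lower and 1 higher in the k.o., 5 at an unadjusted limma p under 0.05, and 3 of the miR-200 family (miR-200a-3p, miR-200b-3p and miR-429-3p) were called lower by limma at an adjusted p under 0.05. The list's members known from choroid plexus did not follow them: miR-204-5p had 3391 CPM in Het and 3116 CPM in k.o. (log2 fold change -0.13), and miR-211-5p 5.52 and 29.8 CPM (log2 fold change 2.88, limma adjusted p = 0.266). The list's median log2 fold change was -2.86 against -0.09 over all tested miRNAs, and its summed level was 5717 to 11625 CPM in Het and 2970 to 6277 CPM in k.o. The oligodendrocyte list (0 of 4 called) summed to 10059 to 16123 CPM in Het and 6622 to 10369 CPM in k.o. The part of these cell types, of depth and of the dissection in the values below was not tested.

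Together the 7 members made up 1.27 to 2.08% of all reads, 1.98% ± 0.104 (SD, n = 4) in Het and 1.65% ± 0.266 (SD, n = 4) in k.o. None of the 7 passed the genotype test. The test was limma on log2(CPM + 1) over the 463 miRNAs whose mean over all libraries reached 10 CPM, all 7 members among them, with Benjamini-Hochberg adjustment over the 463; it called 6, or 1.3% of those tested. At an unadjusted p under 0.05 it gave 1 member, miR-138-5p, against 34 of 463 miRNAs, or 7.34%; it gave no member after median centring, with edgeR or DESeq2, or without Het replicate 1, Het replicate 2 or k.o. replicate 1.

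miR-138-5p, the dendritic arm and the most abundant member (rank 32 of 895 by mean CPM), had 10097, 9788, 7444 and 8653 CPM in Het replicates 1 to 4 and 5265, 8096, 5334 and 5088 CPM in k.o. replicates 1 to 4. Each of the 4 k.o. libraries lay below the Het mean, but k.o. replicate 2 exceeded Het replicate 3, so the groups overlapped. The means were 8995 ± 1206 CPM and 5946 ± 1437 CPM (SD, n = 4 each). On the log2 scale the k.o. minus Het difference was -0.61 (SE 0.24), with an unadjusted limma p of 0.0218, the 18th smallest of 463, and an adjusted limma p of 0.529. Without k.o. replicate 2, the deepest library, the log2 fold change was -0.77 with a limma adjusted p = 0.153. Centring each library on its median raised the median log2 fold change of all tested miRNAs by 0.22, to 0.13, and left miR-138-5p at -0.39, with an unadjusted limma p of 0.153. With edgeR its unadjusted p was 0.0678 and with DESeq2 0.0805.

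The 3p arms of the same hairpins were much lower, and their genotype groups overlapped; whether they moved differently from miR-138-5p is the arm ratio given further on. miR-138-1-3p had 234, 395, 286 and 427 CPM in Het and 308, 232, 457 and 273 CPM in k.o., and the groups lay on top of each other (log2 fold change -0.08, SE 0.29, limma adjusted p = 0.975). Its sign was positive after median centring and with edgeR or DESeq2. miR-138-2-3p had 257, 215, 205 and 205 CPM in Het and 196, 191, 236 and 151 CPM in k.o. (log2 fold change -0.20, SE 0.26, limma adjusted p = 0.975; 0.02 after centring). Its coefficient of variation over the 8 libraries, 15.2%, was the smallest of the 7, against a median of 34.2% over all tested miRNAs.

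miR-137-3p had 2572, 1832, 1803 and 1875 CPM in Het and 1349, 2340, 1583 and 3850 CPM in k.o. The lowest and the highest of the 8 libraries were both k.o. libraries, and the Het libraries lay between them. Its means were 2020 ± 369 and 2280 ± 1128 CPM (SD, n = 4 each; log2 fold change 0.07, SE 0.33, limma adjusted p = 0.975; 0.29 after centring, -0.22 without k.o. replicate 4). The partner arm miR-137-5p reached 39.2 to 79.6 CPM, so miR-137-3p exceeded it 23.2- to 84.5-fold within a library.

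miR-129-5p, the downscaling miRNA, had 1678, 1492, 1732 and 2176 CPM in Het and 2096, 1344, 2164 and 2057 CPM in k.o. Its genotype means, 1770 ± 290 and 1915 ± 383 CPM (SD, n = 4 each), differed by less than their spread (log2 fold change 0.10, SE 0.26, limma adjusted p = 0.975; 0.32 after centring).

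The miR-129 3p arms, which carry the same seed, ranked the libraries differently. miR-129-1-3p had 1558, 3703, 1413 and 2685 CPM in Het and 991, 2609, 1865 and 948 CPM in k.o., the widest relative spread of the 7 members (coefficient of variation 48.6%). Between genotypes it differed by -0.56 on the log2 scale (SE 0.40, limma adjusted p = 0.830), and by -0.34 after centring, -0.31 without Het replicate 2 and -0.84 without k.o. replicate 2. miR-129-2-3p had 2707, 2843, 5487 and 4601 CPM in Het and 2482, 3975, 5849 and 4416 CPM in k.o. (log2 fold change 0.10, SE 0.32, limma adjusted p = 0.975). Its log2 fold change was 0.32 after centring and ranged from -0.085 to 0.33 with 1 library left out. Het replicate 2 was the highest library for miR-129-1-3p and among the lower ones for miR-129-2-3p.

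**Figure D1:**
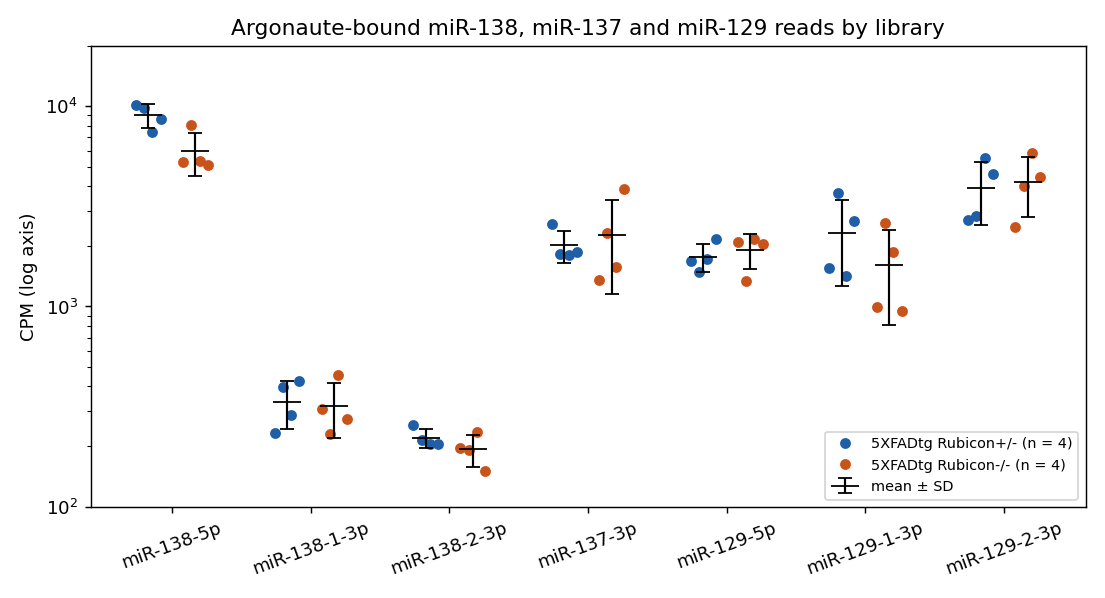
CPM (log axis) of the 7 members in each of the 8 libraries, Het in blue and k.o. in orange, with mean ± SD in black (n = 4 each). miR-138-5p is the highest member and its k.o. libraries lie lower except for 1 at 8096 CPM, while the groups overlap for all 7.

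By mean CPM over the 8 libraries the order was miR-138-5p, miR-129-2-3p, miR-137-3p, miR-129-1-3p, miR-129-5p, miR-138-1-3p and miR-138-2-3p. Those in the middle of this order, miR-137-3p, miR-129-1-3p and miR-129-5p, did not differ beyond their spread, while miR-138-1-3p (232 to 457 CPM) and miR-138-2-3p (151 to 257 CPM) overlapped in range. A CPM is a share of reads, and how well each sequence ligates and amplifies was not measured.

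Over the 7 members the median log2 fold change was -0.08, beside -0.09 over the 463 tested miRNAs. Of the 7, 4 were lower in k.o., beside 275 of 463 (59.4%), but the split turned with scaling: 2 were lower after median centring and 3 with edgeR or DESeq2, where the median over all tested miRNAs was also above 0 (0.13, 0.06 and 0.07). No member had groups that did not overlap, beside 16 of 463 miRNAs (3.46%). The list of 15 other miRNAs known from neurons and synapses, such as miR-124-3p and miR-132-3p, had no call either (7 higher, 8 lower, median log2 fold change -0.13), and its smallest p belonged to miR-153-3p (log2 fold change -0.65, SE 0.30, limma adjusted p = 0.613).

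**Figure D2:**
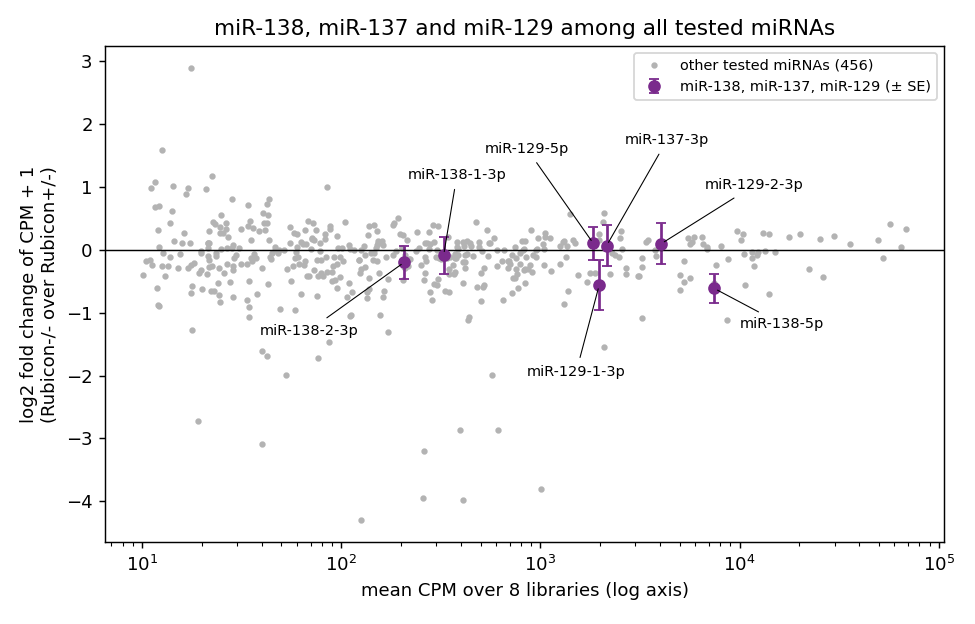
Log2 fold change of CPM + 1, k.o. over Het, against mean CPM over 8 libraries (log axis) for the 463 tested miRNAs, with the 7 members in purple (bars, SE). The members sit between -0.61 and 0.10, within the cloud of the other 456 miRNAs.

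Single reads of the members gave a closer view of miR-138-5p. Of the 3299 sequences whose mean reached 10 CPM, 86 belonged to members, and limma called none of them at an adjusted p under 0.05, beside 0.485% of all tested reads. At an unadjusted p under 0.05 it gave 6 of the 86, beside 5.3% of all tested reads, and 5 of the 6 were reads of miR-138-5p, all lower in k.o., while the other was a 22 nt read of miR-137-3p that began 2 nt downstream of the main start and was higher in k.o. (55.4 and 100.4 CPM in the means). This count of 6 was 3 with edgeR, 2 without k.o. replicate 1 and 14 without k.o. replicate 2. Of the 33 tested miR-138-5p reads, 28 were lower and 5 higher (median log2 fold change -0.55); these reads come from the same libraries and are not independent of each other.

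The smallest p among them was that of a 20 nt form that stops 3 nt short of the mature end:
miR-138-5p, 20 nt form: aGCUGGUGuugugaaucagg
It had 1087, 975, 1109 and 1291 CPM in Het and 450, 918, 403 and 565 CPM in k.o., without overlap (log2 fold change -1.001, SE 0.30, limma adjusted p = 0.471). The groups did not overlap for 3 of the 86 member reads, all of miR-138-5p, beside 99 of 3299 tested reads, or 3%. The full 23 nt read had 3255, 4022, 2889 and 2420 CPM in Het and 2031, 2617, 2446 and 1528 CPM in k.o., with overlap (log2 fold change -0.55, SE 0.27, limma adjusted p = 0.966). The share of miR-138-5p reads that were the full 23 nt read ranged from 28.0 to 45.8% and did not separate the genotypes (35.0% ± 6.02 in Het and 36.7% ± 7.09 in k.o., SD, n = 4 each; two-sided exact permutation p = 0.743).

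Arm use differed strongly between the families and in the same direction in 8 of 8 libraries. miR-138-5p exceeded the sum of its 3p arms 7.69- to 20.6-fold, while miR-129-5p reached only 0.204 to 0.603 times the sum of its 3p arms. Thus miR-138 and miR-137 each entered the RISC mostly as 1 arm, and miR-129 as both. Log2 ratios of 5p to 3p reads were 4.02 ± 0.249 in Het and 3.54 ± 0.547 in k.o. for miR-138 (SD, n = 4 each; two-sided exact permutation p = 0.171). Their difference of -0.47 was -0.71 without k.o. replicate 2 and -0.27 without k.o. replicate 3. For miR-129 they were -1.80 ± 0.346 and -1.56 ± 0.666 (exact two-sided permutation p = 0.571). The exact test of 4 against 4 libraries cannot go below p = 0.0286. Its 32 measures were ratios, the share of reads with another seed than the member's most abundant read, main read share, length and 3′ end. They were adjusted together: none passed, the smallest adjusted exact permutation p being 0.871, and 1 had an unadjusted exact permutation p under 0.05.

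The 3p arms also tell which hairpin a guide came from. miR-138-1-3p was the larger of the miR-138 3p arms in 7 of 8 libraries, at 0.910 to 2.08 times miR-138-2-3p, and its log2 ratio was 0.57 ± 0.528 in Het and 0.69 ± 0.297 in k.o. (SD, n = 4 each; two-sided exact permutation p = 0.743). The miR-129 locus ratio moved much more between libraries. miR-129-1-3p over miR-129-2-3p was 0.540, 1.24, 0.243 and 0.538 in Het and 0.377, 0.627, 0.295 and 0.199 in k.o. Only reads that reach the base that differs and match their own miRNA there were counted. In 7 of 8 libraries the Mir129-2 arm was the larger, and Het replicate 2 was the exception. Reads that do not tell the hairpins apart, too short or with a mismatch, were 1.97 to 3.63% of miR-129 3p reads. With all reads as named, the log2 ratio was -0.79 ± 0.955 in Het and -1.45 ± 0.672 in k.o. (SD, n = 4 each; two-sided exact permutation p = 0.286). Their difference of -0.66 was -0.27 without Het replicate 2 and -1.05 without Het replicate 3.

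**Figure D3:**
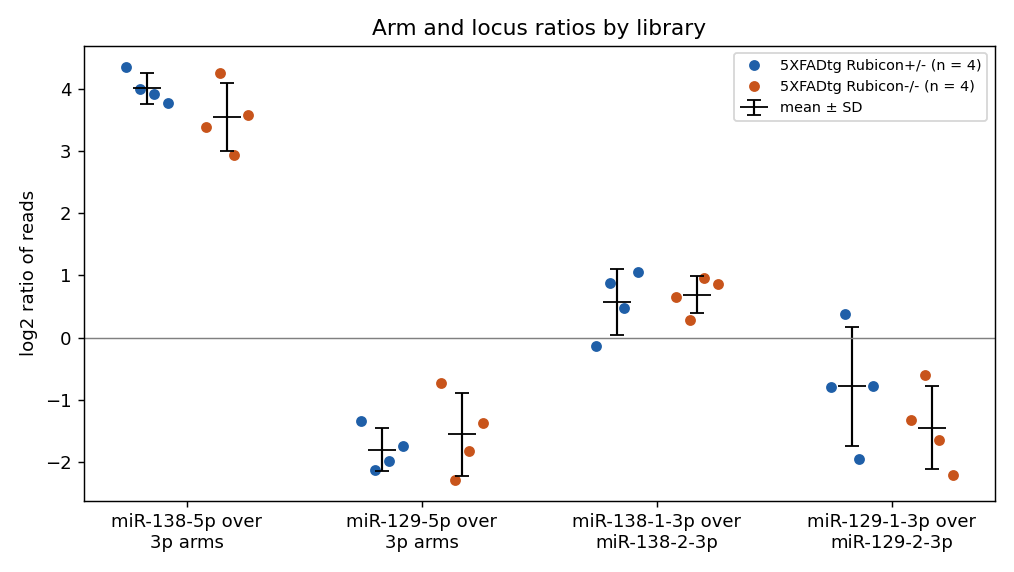
Log2 ratio of reads in each library for the 5p over the 3p arms of miR-138 and miR-129 and for the 3p arms of the hairpin pairs, Het in blue and k.o. in orange, with mean ± SD (n = 4 each). miR-138 lies above 0 and miR-129 below 0 for arm use, and the miR-129 locus ratio spans -2.22 to 0.38.

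The genes of miR-138-5p could be separated only past position 23, where the hairpins stop being identical; this split was chosen after the data were seen. The read with an added U, as Mir138-1 continues, had 916 ± 384 CPM (SD, n = 8), and the read with an added A, as Mir138-2 continues, had 459 ± 169 CPM. The reads with an added C or G, which neither hairpin encodes, had 1.51 and 6.41 CPM. At 2 added bases, UU (Mir138-1) reached 270 ± 124 CPM, and AC (Mir138-2) 0.884 CPM, or 31 reads in all 8 libraries together, while AA, which neither hairpin encodes, reached 20.4 ± 10.8 CPM. A or U can also be added to a finished miRNA, so an encoded and an added end cannot be told apart in these reads.

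The 5′ start sets the seed, and the members differed in how fixed it was. miR-138-5p, miR-129-5p, miR-129-1-3p and miR-129-2-3p began at their main start in 92.3 to 98.2% of reads of any library. miR-138-2-3p did so in 91.7 to 98.5%, and miR-137-3p in only 65.6 to 78.7%. It began 1 nt downstream in 14.96 to 26.2% and 2 nt downstream in 4.26 to 9.85%, which changes its seed from UAUUGC to AUUGCU and UUGCUU. The most abundant shifted read of miR-137-3p shows the first of these:
miR-137-3p, 1 nt downstream: uAUUGCUUaagaauacgcguag
It had 311, 271, 146 and 268 CPM in Het and 63.6, 280, 212 and 403 CPM in k.o. The reads that began 2 nt downstream made up 5.06% ± 0.837 of miR-137-3p in Het and 8.10% ± 2.18 in k.o. (SD, n = 4 each), with overlap. This share was not tested; its most abundant read (22 nt) differed by 0.87 on the log2 scale (SE 0.37, limma adjusted p = 0.883). The share of all miR-137-3p reads with a seed other than the main one was 28.4% ± 5.32 and 30.8% ± 3.91 (exact two-sided permutation p = 0.571). A mismatch within the seed counts in this share as well as a moved start.

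For miR-138-1-3p the annotated start was rarely used. Only 1.13 to 9.09% of its reads began there, and 85.1 to 97.2% began 2 nt downstream, so the seed in the RISC was CUACUU and not the annotated GGCUAC. The highest annotated share, 9.09%, was in Het replicate 1, the shallowest library, which held 121 reads of this miRNA. For the other 5 members with a RefSeq entry the main start was the annotated one. 95% Wilson intervals for a share in 1 library were at most 17.4 percentage points wide for miR-138-1-3p, 15.1 for miR-138-2-3p and 2.53 to 6.28 for the other members; they cover counting error only.

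**Figure D4:**
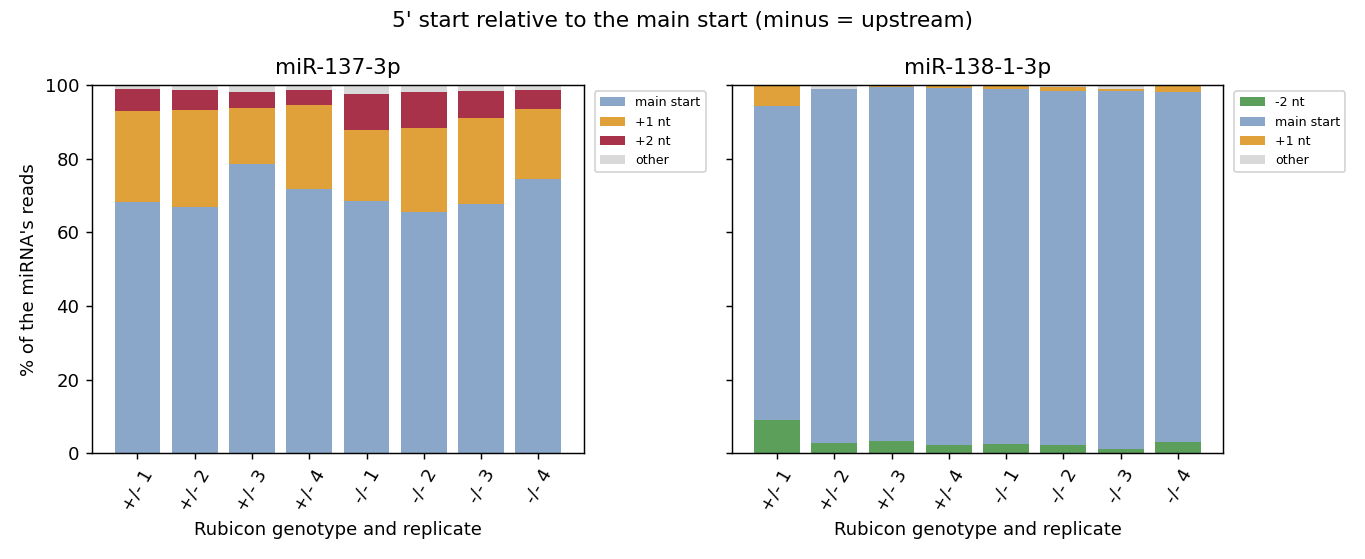
Share of reads by 5′ start, in nt from the main start (minus, upstream), for miR-137-3p and miR-138-1-3p in each of the 8 libraries (+/- Het, -/- k.o.). miR-137-3p begins downstream of its main start in a large minority of reads in every library, and the start of miR-138-1-3p at -2 nt, the annotated one, stays at or below 9.09%.

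Mean read lengths overlapped between genotypes for all 7 members. Reads of miR-138-5p averaged 22.6 ± 0.218 nt in Het brains and 22.8 ± 0.0550 nt in k.o. brains (SD, n = 4 each; two-sided exact permutation p = 0.200), and the difference of 0.166 nt was 0.0713 nt without Het replicate 3. Reads of miR-137-3p averaged 22.0 ± 0.152 and 22.0 ± 0.0854 nt (SD, n = 4 each). In miR-129-5p a single 21 nt read, the mature form, held 70.3 to 76.7% of reads. miR-137-3p was instead split between the 21 nt read (709, 516, 773 and 582 CPM in Het and 434, 743, 411 and 1515 CPM in k.o.) and the annotated 23 nt read (697, 450, 311 and 532 CPM in Het and 239, 511, 451 and 955 CPM in k.o.). The shorter was the more abundant in 7 of 8 libraries, the exception being k.o. replicate 3.

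A part of each member's reads ended in bases that no hairpin of the member encodes. Terminal transferases are known to add A or U to miRNA 3′ ends, but a mismatch near the end of a read counts here too. The origin of these ends was not tested. A single C or G ended 2.23% of miR-137-3p reads. Ends of no such simple kind (neither A alone, U alone nor 1 base C or G) made up 4.20% of miR-138-5p reads. Counted in this way, the share was highest for the miR-138 3p arms, 29.8% ± 4.93 for miR-138-2-3p and 29.4% ± 4.21 for miR-138-1-3p (SD, n = 8). It was 15.6% ± 2.59 for miR-138-5p, 12.1% ± 2.41 for miR-129-5p, 8.61% ± 1.03 for miR-137-3p, 6.49% ± 1.22 for miR-129-1-3p and 2.57% ± 0.744 for miR-129-2-3p. The count takes the added U, UU and A of miR-138-5p (means of 916, 270 and 459 CPM) as encoded. If they were added instead, the share of miR-138-5p would be higher and the ranking could change. Tails of U alone made up 13.9% of miR-138-2-3p reads and 11.7% of miR-138-1-3p reads, 4.66% of miR-138-5p and 2.49% of miR-129-5p reads, but 0.841% of miR-137-3p, 0.592% of miR-129-1-3p and 0.0536% of miR-129-2-3p reads. Tails of A alone made up 12.1% of miR-138-2-3p and 15.3% of miR-138-1-3p reads, 6.48% of miR-138-5p and 7.91% of miR-129-5p reads, and 5.13% of miR-137-3p, 4.94% of miR-129-1-3p and 2.03% of miR-129-2-3p reads.

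A typical tailed form of miR-138-2-3p is its most abundant one, in which the last U is not encoded:
miR-138-2-3p, U tail: gCUAUUUCacgacaccaggguuu
It had 42.5, 14.4, 21.4 and 13.5 CPM in Het and 22.8, 22.0, 15.04 and 21.6 CPM in k.o., so it was present in all 8 libraries. The single measure of the 32 with an unadjusted exact permutation p under 0.05 was the tailed share of miR-129-2-3p. It was 2.92, 3.75, 2.73 and 3.31% in Het and 2.03, 2.05, 2.27 and 1.51% in k.o., without overlap (3.18% ± 0.451 and 1.96% ± 0.323, SD, n = 4 each; two-sided exact permutation p = 0.0286, the smallest this design allows; adjusted p = 0.871). Its sister miR-129-1-3p had 6.36% ± 1.16 and 6.62% ± 1.43 (SD, n = 4 each), with overlap.

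**Figure D5:**
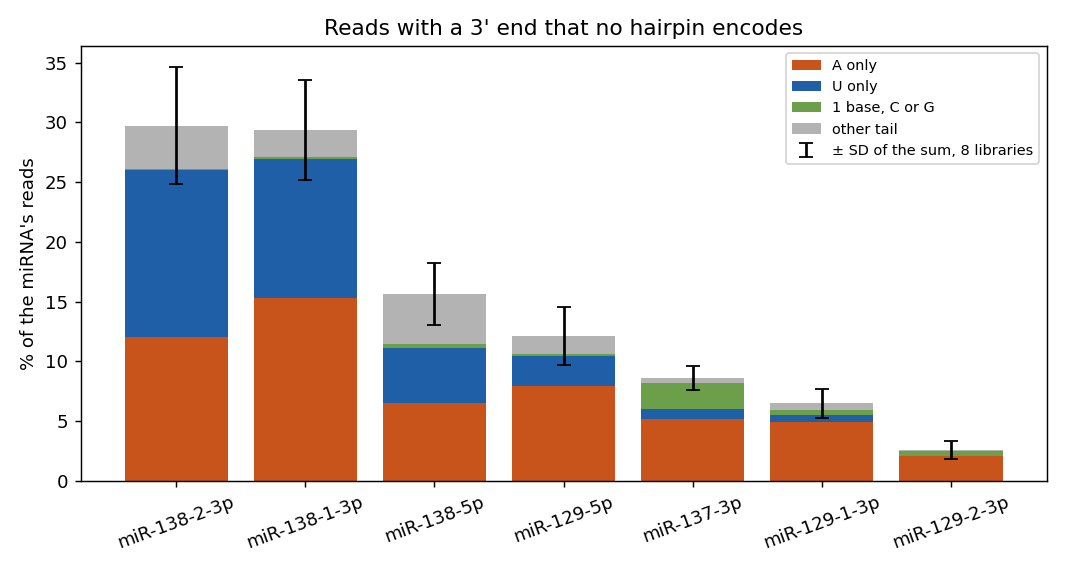
Mean share over 8 libraries of each member's reads whose 3′ end no hairpin of the member encodes, split by the added bases, with the SD of the sum as bars. The miR-138 3p arms stand at 29.8 and 29.4% and miR-129-2-3p at 2.57%.

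The deposited table gives for each 6mer seed a viability, the mean survival in percent of 3 mouse cell lines given an siRNA with that seed, where low values mean a toxic seed. The members span this scale. AGCCCU of the miR-129 3p arms had a viability of 23.7, GCUGGU of miR-138-5p 34.5, UAUUGC of miR-137-3p 51.3, CUAUUU of miR-138-2-3p 74.4, CUACUU of miR-138-1-3p 80 and UUUUUG of miR-129-5p 84.4. The arms of miR-129 thus carried seeds at opposite ends of the range of the 7. The shifted starts changed the value too: the miR-137-3p read that began 2 nt downstream carried a seed of viability 87, and the annotated but little used start of miR-138-1-3p a seed of 39.1.

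Members supplied 94.6 to 100% of all reads with these 6 seeds, so each of these seeds came almost wholly from 1 family. Of all reads with a seed viability under 40, members made up 11.4, 11.3, 11.4 and 11.8% in Het and 8.08, 11.0, 9.26 and 9.999% in k.o. The groups did not overlap (11.5% ± 0.216 and 9.60% ± 1.25, SD, n = 4 each). This share was looked at after the levels were known and was given no test. Of the members, only miR-138-5p and the miR-129 3p arms have main seeds under 40, and miR-138-5p is the most abundant of them (mean 7471 CPM). The share is therefore not independent of the miR-138-5p difference given above. The share of all reads with a seed viability under 40 was 13.2% ± 0.868 in Het and 12.1% ± 1.79 in k.o. (SD, n = 4 each), with overlap.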

How the data were processed

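Small RNAs bound to Ago were sequenced from 8 mouse brains, 4 of each genotype. The authors trimmed the reads (Trim Galore, version not given in the sources used here), counted identical sequences, annotated them with their SPOROS pipeline and deposited CPM per sequence and library; the genome build of this step is not given in the sources used here. The deposited seed viability is a score in percent, the mean of 3 mouse cell lines. The deposited NormTotal column, a signal the authors summed over libraries, was not used. All CPM values (100%, tolerance 0.001 CPM) were whole multiples of the value of 1 read, so reads were recovered. The miRNA names are those in the deposited table.

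CPM were added per miRNA name. Genotypes were compared with limma 3.58.1 (R 4.3.3; trend and robust) on log2(CPM + 1) for features with a mean of at least 10 CPM, adjusted by Benjamini-Hochberg over all features tested, at 0.05. edgeR 4.0.16 and DESeq2 1.42.0 on recovered reads were alternatives. Log2 ratios of reads (0.5 reads added), shares and lengths were compared by exact two-sided permutation over 70 splits, adjusted over 32 measures. A 3′ end was called untemplated where at least 15 nt matched a hairpin (RefSeq, GRCm38.p6) from the 5′ end and the rest did not; genes at the hairpins came from GENCODE on GRCm38. p-values measure the spread between libraries, which holds that of preparation and depth as well as that between mice. Per member, the 3 reads with the highest mean CPM were examined, and per list the miRNA with the smallest p was named; the 3 non-member miRNAs with the smallest SD of the log2 difference to a member are named as most alike. Members, lists and tests were chosen with earlier results of these data known. On 3299 simulated reads, limma found 71.5% of the 200 that were changed (log2 fold change 2), and 2.06% of its calls were false. edgeR found 77.5% of them. Changes as small as those of the members were not simulated, so their recovery is not known.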

Additional observations from a re-analysis of the deposited data

Results flagged for a closer look

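In groups of 4 libraries, 6 values stood apart from the other 3 by a gap over Dixon's 95% critical value for 4 values, among 80 groups looked at, where chance gives about 1 in 20, or 4. k.o. replicate 2, the deepest library, held 3 of them. These were miR-138-5p at 8096 CPM (next 5334), miR-129-5p at 1344 CPM (next 2057) and the share of miR-129-2-3p reads with another seed than the main one at 2.12% (next 2.63%). The level of miR-137-3p in Het replicate 1 was 2572 CPM (next 1875). In the same library, the shallowest, 14.9% of miR-138-1-3p reads had another seed than the main one (next 3.94%). In k.o. replicate 4 the untemplated 3′ end share of miR-138-2-3p was 37.7% (next 30.4%).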

How the results depend on the processing

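Genotype differences below are k.o. minus Het. Levels kept their direction in 114 alternatives and turned in 12, and the ratios, shares and lengths in 315 and 38; none of the members passed the adjusted threshold in any alternative run, and no count of members or member reads called rose above 0. All results whose direction turned had differences smaller than the larger SD of the groups. miR-138-5p stayed lower in k.o. in 18 of 18 alternatives, with a log2 fold change of -0.78 to -0.39 and a limma, edgeR or DESeq2 adjusted p of 0.153 to 0.988.

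The log2 fold change of miR-138-1-3p was 0.14 after centring on the library median, 0.049 with edgeR, 0.060 with DESeq2 and 0.12 without the libraries over 5000000 reads, and that of miR-138-2-3p was 0.024 after centring. That of miR-137-3p was 0.32 with edgeR and 0.34 with DESeq2, and that of miR-129-2-3p 0.20 with edgeR, 0.21 with DESeq2 and 0.44 without the libraries over 5000000 reads. Without the libraries over 5000000 reads the difference was -0.135 points in the share of miR-138-5p reads with another seed than the main one. For miR-137-3p it was then 0.254 points in main read share and 0.0121 nt in length. With only reads seen at least 2 times in every library the difference was -0.0913 points in the share of miR-138-5p reads with another seed. The main read share and the untemplated 3′ end share of miR-137-3p then differed by 0.0264 and -0.283 points. The untemplated 3′ end share of miR-129-1-3p differed by -0.134 points. The cause of these changes was not tested.

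The count of all reads called was 35 with a mean of at least 1 CPM and 5 with at least 100 CPM (more and fewer reads tested), and 9 without the libraries over 5000000 reads, beside 16. The deviations of same-numbered libraries correlated at -0.182 to 0.291, and only replicate 2 was best matched by its own number. Whether same-numbered libraries shared a preparation was not tested. A fit with the replicate block called 10 miRNAs and 26 reads, beside 6 and 16 without it, none of them a member's.

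Leaving out 1 library at a time, all miRNAs called ranged from 4 to 9 and all reads called from 9 (without Het replicate 4; 10 without Het replicate 2) to 21. The log2 fold change of miR-129-1-3p ranged from -0.84 to -0.31, that of miR-138-2-3p from -0.30 to -0.086 and that of miR-129-5p from 0.025 to 0.26, the log2 difference of the miR-129 locus ratio from -1.05 to -0.27 and that of the miR-138 arm ratio from -0.71 to -0.27. Log2 fold changes ranged from -0.27 to 0.051 for miR-138-1-3p, -0.22 to 0.28 for miR-137-3p and -0.085 to 0.33 for miR-129-2-3p. The log2 difference ranged from -0.032 to 0.49 for the miR-129 arm ratio and -0.12 to 0.28 for the miR-138 locus ratio. Differences in the share of reads with another seed than the main one ranged from -0.0922 to 0.119 points for miR-138-5p, -3.44 to 0.528 for miR-138-1-3p and -0.0673 to 4.26 for miR-137-3p. They ranged from -0.0650 to 0.413 points for miR-129-5p and -0.0401 to 0.253 for miR-129-2-3p. Those in main read share ranged from -1.38 to 3.89 points for miR-138-5p, -7.66 to 1.81 for miR-138-2-3p and -2.43 to 3.40 for miR-137-3p. Those in untemplated 3′ end share ranged from -0.352 to 3.52 points for miR-138-1-3p, -0.491 to 0.615 for miR-137-3p and -0.373 to 0.781 for miR-129-1-3p. Those in length ranged from -0.0765 to 0.0403 nt for miR-137-3p and -0.0616 to 0.0239 nt for miR-138-1-3p. The length difference of miR-138-5p ranged from 0.0713 to 0.248 nt; without Het replicate 1 its unadjusted exact permutation p was 0.0286, the smallest this design allows (adjusted p = 0.457).

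Depth limits the rarer forms: the shallowest library held 121 reads of miR-138-1-3p, and 1 read there was worth 1.93 CPM.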

Other observations

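Among the 456 tested miRNAs that are no members, those whose levels ran most in parallel with a member were found by the SD of the log2 difference over the 8 libraries, as a description without a test. miR-138-5p ran closest to miR-34c-5p (SD 0.10, against a median of 0.60 over the 456), then miR-376a-5p and miR-322-3p. Taking only each member's closest partner, the next were miR-138-2-3p with miR-185-5p (0.13), miR-138-1-3p with miR-150-5p (0.15) and miR-129-5p with miR-323-3p (0.17). miR-137-3p was closest to miR-142a-5p (0.23), miR-129-1-3p to miR-34a-3p (0.27) and miR-129-2-3p to miR-500-3p (0.34), all with larger SDs than the others. Between miR-129-1-3p and miR-129-2-3p, which differ by 1 base, the SD was 0.84, larger than the median of 0.78 for miR-129-1-3p over the 456.

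Reads from the hairpins that carried no mature name were few. They had a mean of 113 CPM for Mir138-1, 14.4 for Mir138-2, 75.8 for Mir137, 68.7 for Mir129-1 and 78.8 for Mir129-2. For Mir138-1 they had 176, 108, 129.3 and 134 CPM in Het and 82.3, 116, 85.9 and 73.5 CPM in k.o., so k.o. replicate 2 was again the k.o. library nearest to Het.

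The microglia and blood list had 0 of 8 called (3 higher, 5 lower, median log2 fold change -0.15), with the smallest p for miR-451a (log2 fold change -0.86, limma adjusted p = 0.593). The vessel wall list had 0 of 4 called (1 higher, 3 lower, median log2 fold change -0.19), with the smallest p for miR-143-3p (-0.38, limma adjusted p = 0.796). The oligodendrocyte list had 1 higher and 3 lower (median log2 fold change -0.40), with the smallest p for miR-219a-5p (-1.08, SE 0.40, limma adjusted p = 0.495), while miR-219a-2-3p was at 0.13 (SE 0.27, limma adjusted p = 0.975).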
